A study of Mus musculus with 2 samples.

Results

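Hepatic stellate cells lie in the space between hepatocytes and sinusoidal endothelium, where they store retinyl esters and keep a thin matrix in repair. In chronic liver injury they take on a myofibroblast-like state, make fibrillar collagens I and III, tissue inhibitors of metalloproteinases and contractile proteins, and respond to TGF-β, to PDGF and to signals from macrophages. Here they were read in 2 single-cell libraries of mouse liver, labelled AEG-1DMAC and AEG-1fl/fl. AEG-1 is the protein encoded by Mtdh. AEG-1fl/fl mice carried floxed AEG-1 alleles, and AEG-1DMAC mice carried the same alleles with Cre recombinase driven from the LysM (Lyz2) locus, which is active in macrophages, monocytes and neutrophils. All mice were on a C57BL/6J background, were fed a diet high in fat and sugar (HF/HSD) from 7 weeks of age, and were 27 weeks old when the livers were taken. The sex of the animals and the number of livers behind each library are not given in the sources used here. Each group was 1 library, so no test between groups could be made, and every interval below covers counting error only.

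Stellate cells were chosen by measured counts. A cell was kept with at least 100 genes detected and at most 10% mitochondrial counts, and it was a stellate cell when the summed counts of Reln, Pdgfrb, Lrat, Dcn and Adamtsl2 were at least 3, at least 5 per 10000 counts of the cell, and more than 2 times the summed counts of each of 2 short lists of endothelial and macrophage genes. The rule held no collagen. It found 264 of 2571 kept cells in the AEG-1DMAC library and 402 of 3508 in the AEG-1fl/fl library, 666 of 6079 in all. The shares were 10.3% (exact 95% interval 9.12 to 11.5) and 11.5% (10.4 to 12.6), and outside the cells of the hepatocyte gate they were 13.4% (11.9 to 14.9) and 13.6% (12.4 to 14.9), so the intervals overlapped on both bases. With Dcn left out of the rule the shares were 6.30% and 7.73%, a ratio of 0.816 (0.667 to 0.995). At the edge of the rule, 14 and 15 members had exactly 3 gate counts, and 7 and 21 cells had 2 and met the other conditions. Doublets were not removed by a caller. Per member, the median of the sum that did the choosing was 23 and 30 counts.

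The 5 genes of the rule were not held evenly. All 5 were detected in 71 of 264 members of the AEG-1DMAC library and in 168 of 402 of the AEG-1fl/fl library, and 58 and 61 members held only 1 or 2 of them. Dcn, the small proteoglycan decorin, was detected in 99.2% and 99.8% of members and gave 58.4% and 54.5% of the summed gate counts. Reln, the secreted glycoprotein reelin, was detected in 76.1% and 80.1%, and Lrat, the enzyme that esterifies retinol for storage, in 59.8% and 72.6%. Decorin is also made by portal fibroblasts, and 41 and 45 members held neither Reln nor Lrat. Since these genes chose the cells, their levels are a description. As CPM, the counts of a gene scaled to a common total of member counts (1000000), levels were 420 and 654 for Reln, 161 and 326 for Lrat, 161 and 355 for Pdgfrb, 1386 and 2147 for Dcn, and 245 and 460 for Adamtsl2.

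The label was checked on stellate genes outside the rule. Ecm1, a secreted matrix protein, stood at 1407 and 1398 CPM in the members, 8.20-fold above the endothelial gate and 71.2-fold above the hepatocyte gate. The hepatocyte gate was itself chosen for few counts of the stellate gate genes. Of the 26 stellate identity genes, 25 were found once in the matrices, and all 25 reached the minimum of 50 summed counts and entered the comparison. Colec11, a collectin, was detected in 73.8% of 229 and 76.9% of 337 members thinned to 2000 counts each, against 14.8% and 12.5% of cells in the endothelial gate thinned alike. The identity genes were therefore present in both libraries, beside RNA of other cells.

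Several features of the libraries bear on every value. Members held 4240210 and 6090487 counts, with medians of 6324.5 and 6179 counts per cell. The 53 and 65 members with more than 20000 counts held 69.2% and 65.5% of all member counts. A list of 57 hepatocyte genes took a median of 15.2% of a member's counts in the AEG-1DMAC library and 9.28% in the AEG-1fl/fl library. Pooled over members, its share was 17.8% and 15.3%, against 22.7% and 22.6% pooled over the cells of the hepatocyte gate. The pooled member shares were thus 78.4% and 67.9% of those in the hepatocyte gate, and no gene of the list was at 0. Summed resident macrophage markers were 14.4% and 14.8% of their level in the macrophage gate, and endothelial markers 14.5% and 8.59% of theirs. The 2 libraries shared 10 cell barcodes, of which 0 and 1 were members. Mtdh, the targeted gene (chr15:34082694-34145624, mm10), went against the labels in the macrophage gate, with 134 CPM in the library labelled AEG-1DMAC and 32.6 in the library labelled AEG-1fl/fl, a log2 ratio of 2.04 (1.78 to 2.30). In stellate cells, which are not myeloid, Mtdh stood at 76.9 and 75.4 CPM. Where the probes for Mtdh lie relative to the deleted part is not given in the sources used here, so the check does not settle the labels, and directions below are those of the library labelled AEG-1DMAC over the library labelled AEG-1fl/fl.

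Fibrillar collagens were lower in stellate cells of the library labelled AEG-1DMAC. Col1a1 encodes the α1 chain of collagen I (chr11:94936224-94953042, mm10, plus strand), and its summed count was 5661 in the AEG-1DMAC library and 22529 in the AEG-1fl/fl library, or 1335 CPM (1301 to 1370) and 3699 CPM (3651 to 3748). The log2 ratio was −1.47 (−1.51 to −1.43). Col1a2, the partner chain of collagen I, had 1276 and 3178 CPM and a log2 ratio of −1.32. Col3a1, collagen III, had 1951 and 4748 CPM and a log2 ratio of −1.28 (−1.32 to −1.25). The whole collagen list of 23 genes summed to 8000 and 17321 CPM. Of its 20 genes with enough counts, 18 were lower in the AEG-1DMAC library, 9 of them by 2-fold or more, and none was 2-fold higher. Over all 10893 genes compared in the members, 476 were 2-fold lower, or 4.37%, and 80 were 2-fold higher, or 0.734%. The median log2 ratio of the collagens was −0.90 beside −0.18 over all genes. These values depend on the scaling: when the libraries were scaled to stellate-enriched genes, every ratio moved up by 0.75. Of the 20 compared collagens, 14 were themselves stellate-enriched and so entered that scale. So did 25 of 41 noncollagen matrix genes and 15 of 25 stellate identity genes, and scaled values are partly set by the genes they describe. The collagen median was then −0.15 beside 0.56 over all genes, Col1a1 stood at −0.72, and 86 genes were 2-fold lower and 1254 higher.

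**Figure D1:**
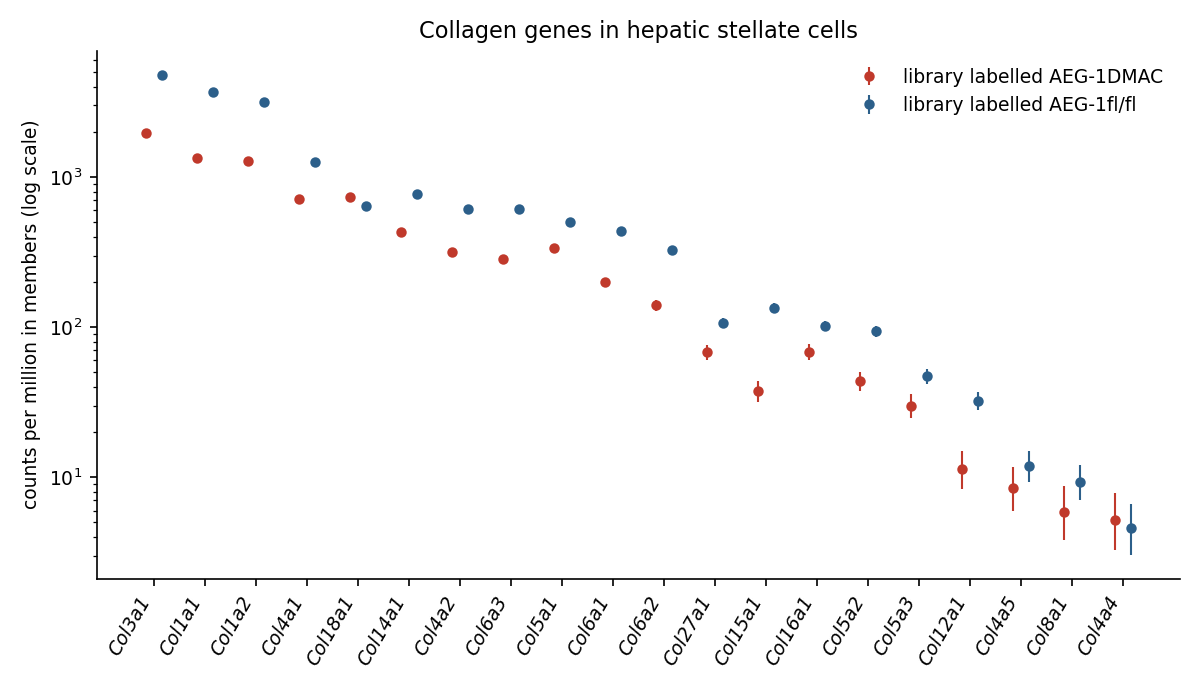
Collagen genes in stellate cells, in CPM on a log axis, ordered by level, for the library labelled AEG-1DMAC (red) and the library labelled AEG-1fl/fl (blue), with 95% counting intervals as bars. The AEG-1DMAC points lie under the AEG-1fl/fl points for Col1a1 (1335 and 3699) and the other abundant collagens, but over them for Col18a1 (737 and 639).

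Collagens of other classes differed by varying amounts. Col15a1, a basement membrane zone collagen, had 37.5 and 134 CPM, a log2 ratio of −1.84 (−2.10 to −1.60), the lowest of the list. Col12a1, which binds collagen I fibrils, had a log2 ratio of −1.51, and Col6a2, of the beaded filaments around cells, one of −1.21. The basement membrane chains Col4a1 and Col4a2 had log2 ratios of −0.81 and −0.95. Col14a1, another fibril-associated collagen, had −0.85. Col18a1, the precursor of endostatin, stood apart at 737 and 639 CPM, a log2 ratio of 0.21 (0.14 to 0.28). Col4a4 had 0.17, with an interval of −0.70 to 1.03 on few counts. In members with at most 8% hepatocyte counts Col18a1 had 241 and 176 CPM, a log2 ratio of 0.45 (0.07 to 0.82). Its level was thus lower there than over all members, while that of Col1a1 was higher, at 5933 and 10083 CPM. The part of hepatocyte RNA in the Col18a1 level was not tested.

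The promoters of 4 genes are shown because they span the range of these ratios: Col3a1, Col15a1 and Timp1, which were lower in the AEG-1DMAC library, and Ecm1, which was level in CPM over all members. Each run is the 250 bases before the RefSeq start on GRCm38.p6, 5′ to 3′ on the strand of the gene, with the motifs searched in capitals. They lie at chr1:45311288-45311537 (plus), chr4:47207762-47208011 (plus), chrX:20869916-20870165 (plus) and chr3:95739570-95739819 (minus).
Col3a1: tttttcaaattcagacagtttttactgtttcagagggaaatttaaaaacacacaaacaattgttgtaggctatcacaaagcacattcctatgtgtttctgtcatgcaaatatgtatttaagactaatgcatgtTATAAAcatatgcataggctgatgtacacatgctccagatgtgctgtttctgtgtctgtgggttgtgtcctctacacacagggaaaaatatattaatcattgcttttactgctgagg
Col15a1: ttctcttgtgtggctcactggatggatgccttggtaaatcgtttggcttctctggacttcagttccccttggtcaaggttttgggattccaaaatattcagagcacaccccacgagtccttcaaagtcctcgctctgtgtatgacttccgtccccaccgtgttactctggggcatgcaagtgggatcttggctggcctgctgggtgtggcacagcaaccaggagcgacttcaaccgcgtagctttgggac
Timp1: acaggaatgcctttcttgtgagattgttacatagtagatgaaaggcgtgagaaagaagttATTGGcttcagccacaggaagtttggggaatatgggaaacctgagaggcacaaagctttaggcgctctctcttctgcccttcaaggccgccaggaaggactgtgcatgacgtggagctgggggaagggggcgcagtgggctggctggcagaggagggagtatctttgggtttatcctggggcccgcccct
Ecm1: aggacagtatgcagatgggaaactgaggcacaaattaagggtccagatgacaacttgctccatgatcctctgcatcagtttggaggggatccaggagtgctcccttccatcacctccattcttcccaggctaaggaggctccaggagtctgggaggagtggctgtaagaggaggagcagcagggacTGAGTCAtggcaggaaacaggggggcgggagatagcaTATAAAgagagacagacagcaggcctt
3 motifs were searched on both strands, and none overlapped another in these runs. TATAAA, the TATA box, was present in 12.4% of 32851 promoters of this length. The CCAAT box was present in 33.9% of them, and TGAGTCA, the AP-1 motif, in 4.46%. Ecm1 held TATAAA 27 to 22 bases and TGAGTCA 64 to 58 bases before its start. Col3a1 held TATAAA 117 to 112 bases before its start, Timp1 held CCAAT on the opposite strand at 190 to 186 bases, and Col15a1 held none of the 3. Of the 23 collagens, 18 had an entry, and 1, 8 and 1 of them held the 3 motifs, while 2, 7 and 1 of the 21 identity genes with an entry did. A match is a run of letters, and no site or factor was read from it.

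Per cell, the lower collagen I level was spread over the members. Col1a1 per 10000 counts ran from 0 to 673 with a median of 6.25 in the AEG-1DMAC library, and from 0 to 830 with a median of 20.3 in the AEG-1fl/fl library. The ranges overlapped almost fully, while the quartiles were 0.498 and 27.1 against 5.16 and 72.3. Ecm1 on the same scale had medians of 12.3 and 12.1. The 10 members with the most Col1a1 held 38.6% and 27.7% of all its counts, and giving each member equal weight brought its log2 ratio to −0.95. After thinning to 2000 counts, which left out 35 and 65 shallower members, Col1a1 was detected in 62.4% (55.8 to 68.7) and 79.5% of members, against 5.97% and 7.18% of cells in the endothelial gate, which should lack it (318 and 376 cells thinned alike). The unthinned shares of members were 79.2% and 91.0%. Lum, the collagen-binding proteoglycan lumican, was detected in 22.7% and 39.8% of thinned members, and Col3a1 in 77.3% and 88.7%.

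The hepatocyte share of a cell moved with its collagen level, so collagen was also counted per stellate identity count, a ratio whose denominator is not the cell total. Over all members Col1a1, Col1a2 and Col3a1 together gave 56.8 counts (55.8 to 57.8) per 100 counts of the identity list in the AEG-1DMAC library and 115 (114 to 116) in the AEG-1fl/fl library. Members with under 4% hepatocyte counts gave 91.6 in 27 cells and 145 in 101 cells. Those with 4 to 8% gave 64.1 and 130. Those with 8 to 12% gave 109 (104 to 113) and 110 (107 to 114), and there the libraries did not differ beyond counting error. At 12 to 16% the ratio was 55.7 and 66.7, at 16 to 20% it was 40.4 and 91.5, and at 20% or more it was 29.4 and 67.6. The ratio was thus lower in the AEG-1DMAC library in 5 of 6 ranges of hepatocyte share, and tended down with the hepatocyte share in both. In members with at most 8% hepatocyte counts, 64 and 180 cells, the log2 ratio of Col1a1 in CPM was −0.77 and the collagen median was −0.25. The part of hepatocyte RNA in the collagen difference was not tested further.

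**Figure D2:**
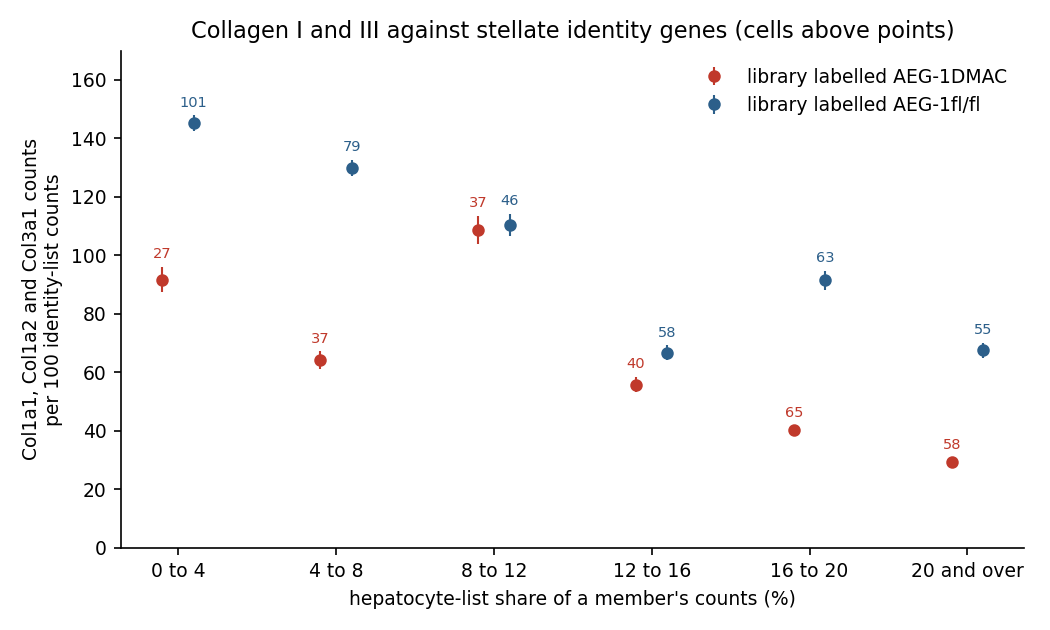
Collagen I and III counts per 100 stellate identity counts, against the share of hepatocyte-list counts in the cell, for each library with 95% counting intervals. The AEG-1DMAC values ran from 29.4 to 109 and the AEG-1fl/fl values from 66.7 to 145, and they met only at 8 to 12%.

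Col1a1 was low outside the stellate gate. It stood at 43.5 and 47.1 CPM in the endothelial gate, a log2 ratio of −0.11, and at 8.90 and 14.8 CPM in the hepatocyte gate, a log2 ratio of −0.73. The median of the collagen list was 0.02 in the endothelial gate, 0.34 in the macrophage gate and −0.42 in the hepatocyte gate, beside −0.90 in stellate cells. The difference between these gates was not tested, since each had 1 library per group.

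Members rich in fibroblast genes held much of the collagen in both libraries. Dpt, dermatopontin, and Mfap4, a microfibril protein, are made more by fibroblasts than by stellate cells, and 36 and 46 members had at least 5 counts of them. These members held 11.97% and 15.5% of all member counts but 53.0% and 38.9% of the Col1a1 counts. Col1a1 stood at 5918 and 9288 CPM in them and at 712 and 2675 CPM in the other members. Most also held stellate markers, since only 8 of the 36 and 2 of the 46 held neither Reln nor Lrat. Reln stood at 388 and 741 CPM in them and at 424 and 639 in the other members. Lrat stood at 61.1 and 360 CPM in them and at 175 and 320 in the other members. In members that held Reln or Lrat and under 5 counts of Dpt and Mfap4, 195 and 313 cells, the log2 ratio of Col1a1 was −2.12 and the collagen median was −1.37. That choice changed both conditions at once, and the part of fibroblast-rich cells in the collagen difference was not tested. The division was chosen after the data were seen.

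Stellate identity genes differed less than the collagens. None of the 25 was past 2-fold in either direction, and the median log2 ratio was −0.38, which turned to 0.36 when libraries were scaled to stellate-enriched genes and to 0.14 in members with at most 8% hepatocyte counts. Cygb, the stellate globin cytoglobin, was the lowest at 186 and 360 CPM, a log2 ratio of −0.96 (−1.07 to −0.84). Lhx2, a transcription factor that holds stellate cells quiescent, had −0.73, and Hgf, the hepatocyte mitogen they secrete, had −0.59. Prelp and Colec11 had −0.57 and −0.41, and the chemokine gene Cxcl12 had −0.38. Ecm1 had 0.01 (−0.04 to 0.06), and Pth1r, the parathyroid hormone receptor, had −0.06. In members with at most 8% hepatocyte counts Ecm1 had 0.57 (0.49 to 0.66) and Pth1r had 0.68 (0.53 to 0.83). Colec10, another collectin, and Vipr1, a receptor for vasoactive intestinal peptide, were on the other side of 0, both at 0.23.

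The 391 stellate-enriched genes were at least 4-fold above each other gate in the mean CPM of both libraries, and so drawn from these same cells. A gene could pass through a high level in 1 library alone, so the counts of lower and higher genes are a description. Of these genes 342 were lower in the AEG-1DMAC library, 92 by 2-fold or more and 6 higher by as much. Their median of −0.60 turned to 0.15 under scaling to themselves. With a minimum of 100 counts, the lowest was Cxcl5, a neutrophil-attracting chemokine, at 4.72 and 30.1 CPM, a log2 ratio of −2.67. It was followed by Zbtb8b at −2.21, Mfap2 of elastic microfibrils at −2.06, Sphk1, sphingosine kinase, at −1.94, Scube1 at −1.85, Col15a1, Sulf1, an extracellular sulfatase, at −1.78, and Smtnl2 at −1.71. At the other end stood Myh11 at 1.66, Myl9 at 1.03, Acta2 at 0.77, Mfap4 at 0.66, Itgbl1 at 0.49, Dpep1 at 0.41, Gem at 0.28 and Dcdc2a at 0.27. Without 4 members of each library rich in smooth muscle genes, Myh11 stood at 0.29 and Acta2 at −0.71.

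**Figure D3:**
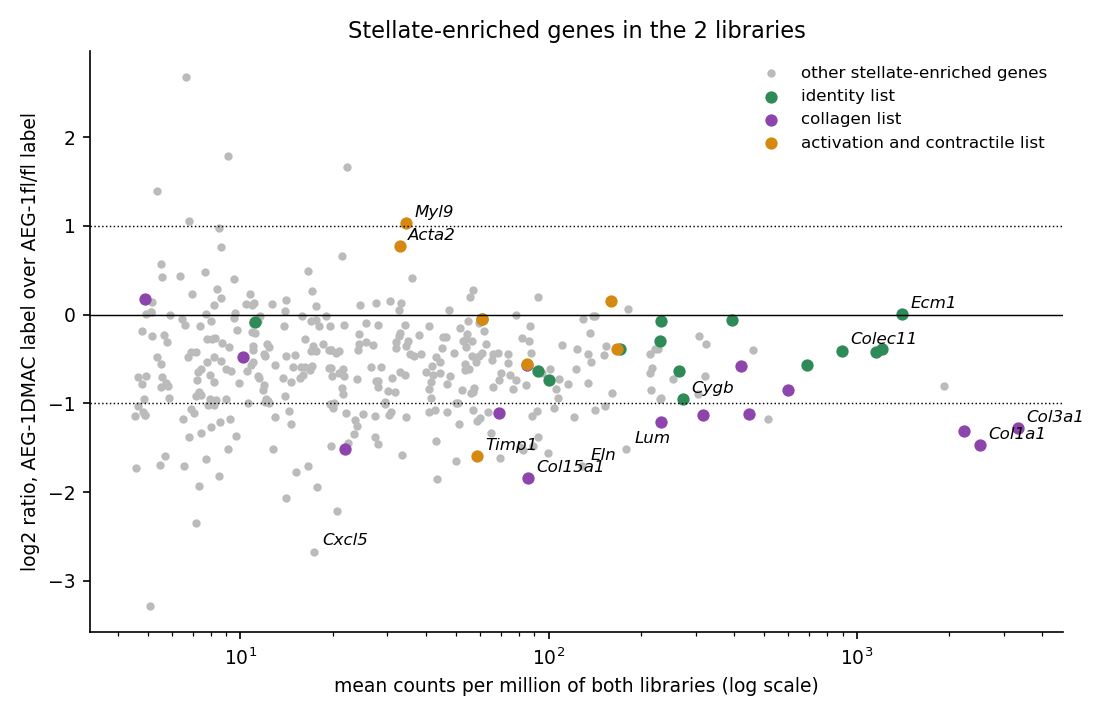
Stellate-enriched genes, each a point, by mean CPM of both libraries (log axis) and log2 ratio of the AEG-1DMAC over the AEG-1fl/fl label, with colours for the identity, collagen and activation lists and dotted lines at 2-fold. Most points lie under 0, with Col1a1 at −1.47 and Cxcl5 at −2.67, while Ecm1 lies at 0.01 and Myl9 at 1.03.

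Of 41 noncollagen matrix genes, 7 were 2-fold lower, or 17.1% beside 4.37% over all genes, and none 2-fold higher. Their median log2 ratio of −0.65 turned to 0.09 under scaling to stellate-enriched genes. Eln, elastin, had 60.4 and 197 CPM, a log2 ratio of −1.71 (−1.91 to −1.51), and Lum had 92.2 and 264 CPM, a log2 ratio of −1.52. Vcan, the large proteoglycan versican, had −2.11 on 3.54 and 15.3 CPM. The abundant Bgn, biglycan, and Sparc, a collagen-binding glycoprotein, had −0.81 and −0.77, and Fn1, fibronectin, had −0.47. Vtn, vitronectin, which hepatocytes also make, stood at −0.01. The fibroblast genes Dpt and Mfap4 stood at 0.20 and 0.66.

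Genes that process and cross-link collagen were also on the lower side, with 3 of 25 past 2-fold, or 12% beside 4.37% over all genes. None was past it in the other direction, and the median of −0.60 turned to 0.15 under scaling to stellate-enriched genes. Fkbp10, a collagen chaperone, had 35.1 and 84.4 CPM, a log2 ratio of −1.26. Loxl1, which cross-links elastin, had −1.05, but 0.12 in members with at most 8% hepatocyte counts. Plod2, a lysyl hydroxylase, had 19.6 and 39.2 CPM, and Serpinh1, the collagen chaperone of the endoplasmic reticulum, had −0.80. Pcolce2, an enhancer of procollagen cleavage, stood at 0.85 on 11.6 and 6.40 CPM.

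Proteases and their inhibitors were lower by 2-fold in 9 of 20 genes, or 45% beside 4.37% over all genes, and higher in none. Their median of −0.85 was −0.10 under scaling to stellate-enriched genes. Timp1, the metalloproteinase inhibitor of activated stellate cells (chrX:20870166-20874735, plus strand), had 29.0 and 87.8 CPM, a log2 ratio of −1.60 (−1.89 to −1.31), but −0.28 (−0.72 to 0.13) in members with at most 8% hepatocyte counts. Timp3 had −1.16. After thinning, Timp1 was detected in 7.86% and 15.4% of members, against 1.26% and 3.19% of cells in the endothelial gate. Mmp14, the membrane-type collagenase, had −1.08, and Plat, tissue plasminogen activator, had −1.65. Adam8 at −3.02 and Mmp12 at −2.55 are made mainly by macrophages. Adamts1 stood at −0.04.

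**Figure D4:**
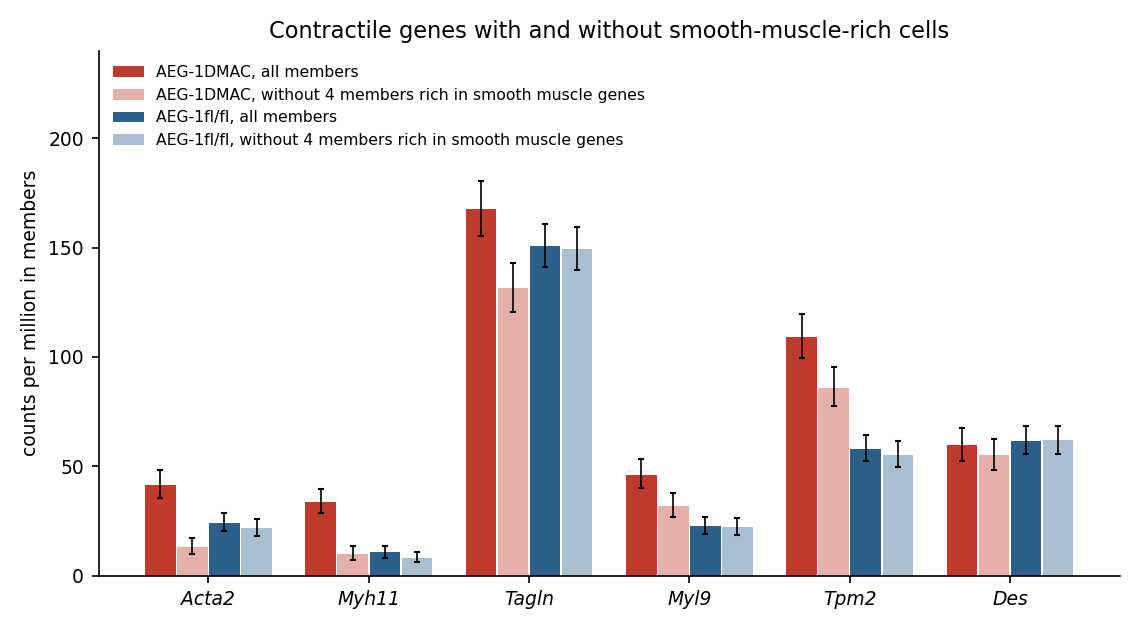
Contractile genes of stellate cells in CPM, for all members and without the 4 members of each library rich in smooth muscle genes, with 95% counting intervals as bars. Acta2 went from 41.5 to 13.3 CPM in the AEG-1DMAC library and from 24.3 to 21.8 in the AEG-1fl/fl library.

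Contractile genes turned on a few cells. Acta2 encodes smooth muscle α-actin (chr19:34241090-34255590, minus strand), the usual marker of activated stellate cells, and it had 176 and 148 counts, 41.5 and 24.3 CPM. In the AEG-1DMAC library 4 members with 8 to 141 counts of the smooth muscle genes Myh11, Cnn1, Actg2 and Lmod1 held 68.2% of the Acta2 counts, 1 of them 89 counts, and none of these 4 held Reln. In the AEG-1fl/fl library the 4 members past the same limit had 5 to 7 such counts and held 11.5%. Without these members Acta2 stood at 13.3 CPM (10.0 to 17.2) and 21.8 CPM (18.2 to 25.8), and the log2 ratio turned from 0.77 to −0.71 (−1.19 to −0.25). Another single cell, of the AEG-1fl/fl library, held 42 Acta2 counts, and without the 1 remaining member of each library with the most Acta2 the levels were 12.1 and 15.0 CPM, a log2 ratio of −0.31 (−0.84 to 0.20). No direction for Acta2 therefore held over these choices, which include 1.71 with equal weight per cell, 2.29 at no more than 8% hepatocyte counts and 1.52 under scaling, all with the smooth-muscle-rich members kept. Myh11, smooth muscle myosin, went from 1.66 to 0.29 (−0.34 to 0.91). Cnn1, calponin, had 40 counts and 1, and all 40 lay in those 4 members. Tagln, transgelin, went from 0.15 to −0.18 (−0.34 to −0.03), and to −0.07 (−0.24 to 0.09) when the top remaining member of each library, with 37 and 133 of its counts, was left out too. Tpm2, a tropomyosin, stayed above 0 at 0.64 (0.42 to 0.86), and so did Myl9, a myosin light chain, at 0.52. Des, desmin, which quiescent stellate cells also hold, was at −0.05 with and −0.17 without them.

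The activation list as a whole had 3 of 23 genes 2-fold lower and 1 higher, beside 4.37% and 0.734% over all genes. Its median of −0.33 turned to 0.41 under scaling to stellate-enriched genes. Vim, vimentin, had 404 and 689 CPM, a log2 ratio of −0.77. Spp1, osteopontin, had 62.0 and 367 CPM, a log2 ratio of −2.56, and Lgals3, galectin 3, had −1.35. Lipid-associated macrophages make both. After thinning, Spp1 was detected in 6.11% and 19.9% of members, against 7.86% and 15.4% of cells in the endothelial gate. The macrophage gate had 5.19% and 19.8%, and whether the share in members is background from other cells was not tested. The list of 12 compared genes of lipid-associated macrophages had 10 past 2-fold lower in stellate cells, a median of −2.04, and none of its genes was at 0. Its summed CPM in members was 16.8% and 19.6% of that in the macrophage gate. The resident macrophage list had a median of 0.04, with Cd5l at 0.04.

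The TGF-β list had 2 of 30 genes past 2-fold lower, or 6.67%, near the 4.37% over all genes, with 28 below 0 and a median of −0.65 that turned to 0.10 under scaling to stellate-enriched genes. Ccn2, connective tissue growth factor, had −0.84, but 0.10 (−0.05 to 0.25) in members with at most 8% hepatocyte counts. Tgfbi had −0.73, and Tgfbr2, the type II receptor, had −0.78. Smad6, an inhibitor of the BMP branch, had −1.73 on 5.19 and 17.2 CPM, and the ligand gene Tgfb2 had 0.05. The list of PDGF and other growth receptors had 4 of 23 genes past 2-fold lower and a median of −0.50, which turned to 0.25 under the same scaling. Ddr1, a collagen receptor, had −1.44, and Agtr1a, the angiotensin receptor, had −0.33. Egfr had −1.18, but 1 cell held 225 of its 1663 counts in the AEG-1fl/fl library.

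Factors that stellate cells send to other cells varied from gene to gene. The paracrine list had 2 of 21 genes past 2-fold lower, or 9.52% beside 4.37% over all genes. Its median of −0.28 turned to 0.47 under scaling to stellate-enriched genes and to 0.03 with the hepatocyte profile subtracted. Gdf2, which encodes BMP9 and is made by stellate cells, had 157 and 303 CPM, a log2 ratio of −0.95 (−1.08 to −0.82). Its relative Bmp10 had 59.7 and 51.9 CPM, a log2 ratio of 0.20 (−0.04 to 0.44). Wnt4 had −1.10, Rspo3, an enhancer of Wnt signals to pericentral hepatocytes, had −0.15, and Igf1 had −0.16. Chemokine and cytokine genes had 8 of 24 past 2-fold lower and a median of −0.65 that turned to 0.10 under that scaling. Cxcl1, which draws neutrophils, had −1.62, but −0.02 (−0.79 to 0.68) in members with at most 8% hepatocyte counts. Lcn2, lipocalin 2, had −1.78, and Vcam1, an adhesion receptor for leukocytes, had −1.33.

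Transcription factors of stellate cells had 2 of 32 genes past 2-fold lower, or 6.25%, near the 4.37% over all genes. The 2 were Runx1 at −1.64 and Runx2 at −1.25. The median of the list was −0.38, which turned to 0.37 under scaling to stellate-enriched genes. Hand2 and Tcf21, which mark mesenchyme, had −0.64 and −0.39. Retinoid and lipid handling genes had 3 of 16 past 2-fold lower, or 18.8% beside 4.37% over all genes. Their median of −0.24 turned to 0.50 under that scaling. Lpl, lipoprotein lipase, had −1.36. Aldh1a1, which makes retinoic acid and is also made by hepatocytes, had 0.38. Of 5 periportal and 5 pericentral stellate genes, 0 and 1 were past 2-fold lower, with medians of −0.44 and −0.15. The list of 6 stellate genes that the study itself picked from these libraries had 5 past 2-fold lower, and being chosen on the same cells it is not independent evidence of a direction.

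Members with little hepatocyte RNA gave smaller differences for many of these genes. In these 64 and 180 members the log2 ratio was 0.81 for Dpt and 1.31 for Mfap4, the fibroblast genes, and 2.26 for Myl9. The mix of cells may thus differ between the libraries in this subset, and its part in the smaller differences was not tested. At no more than 8% hepatocyte counts the log2 ratio was −0.63 for Col1a2, −0.52 for Col3a1, −0.76 for Col12a1 and −0.55 for Col6a2. Among matrix genes and inhibitors it was −0.86 for Lum, −0.84 for Vcan, −0.65 for Fkbp10, 0.03 for Plod2, −0.78 for Timp3, −0.84 for Mmp14 and −0.91 for Plat. Among signalling genes it was −0.99 for Smad6, −0.64 for Ddr1, −0.15 for Egfr, 0.54 for Agtr1a, −0.51 for Wnt4 and 0.63 for Rspo3. It was −0.91 for Vcam1, −0.96 for Runx1 and −0.30 for Runx2, and on the other side of 0 for Hand2 at 0.19, Tcf21 at 0.42, Colec11 at 0.09 and Cxcl12 at 0.15. Of the enriched genes, Mfap2, Scube1, Sulf1 and Smtnl2 had −0.92, −0.83, −0.71 and −0.30. Genes past 2-fold lower there included Col15a1 at −1.04, Eln at −1.24, Cxcl5 at −2.16, Lcn2 at −3.12 and Lpl at −1.65. Also past it were Zbtb8b at −2.29, Sphk1 at −2.01, Egr2 at −1.66, Adam8 at −2.51, Spp1 at −4.09 and Mmp12 at −4.46. Spp1, Mmp12, Lcn2 and Lpl stood further from 0 than over all members, and Col15a1, Eln, Cxcl5, Egr2 and Adam8 nearer. Spp1, Mmp12 and Lcn2 had only 6, 4 and 6 counts there in the AEG-1DMAC library.

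Within each library the members also varied among themselves along collagen. Members were ranked by the share of collagen I and III in the sum of collagen and identity counts and split into 3 groups of 87, 86 and 86 cells in the AEG-1DMAC library and 130, 129 and 129 in the AEG-1fl/fl library, leaving out 5 and 14 members with under 10 such counts. The limits fell at 13.1% and 35.3%, and at 29.3% and 53.8%, so the groups are ranges and not types. Within 2 points of a limit lay 38 and 11 members in the AEG-1DMAC library and 16 and 15 in the AEG-1fl/fl library. Collagen per 100 identity counts was 8.94, 29.3 and 205 in the first library and 22.1, 78.4 and 299 in the second.

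Other genes were then read along that ranking. Leaving out collagens I and III, the identity list and the gate genes, 188 stellate-enriched genes had enough counts. Per identity count, 165 of them were higher in the highest range than in the lowest in both libraries, 109 by 2-fold or more, and 12 were lower in both. Per 100 identity counts, Eln went from 0.0704 to 3.14 in the AEG-1DMAC library and from 0.123 to 6.67 in the AEG-1fl/fl library. Timp1 went from 0.0634 to 1.32 and from 0.338 to 2.37, and Vim from 2.39 to 11.6 and from 3.20 to 12.5. Col15a1 was higher by 5.07 and 5.47 on the log2 scale. Podn, the proteoglycan podocan, went from 0.296 to 3.07 and from 0.496 to 1.48. Ecm1 went from 20.5 to 10.6 and from 17.2 to 10.1, but it is an identity gene and sits in the denominator. The median hepatocyte share was 16.9%, 15.7% and 11.5% in the AEG-1DMAC library and 11.8%, 10.2% and 6.15% in the AEG-1fl/fl library, and its part in this ordering was not tested.

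**Figure D5:**
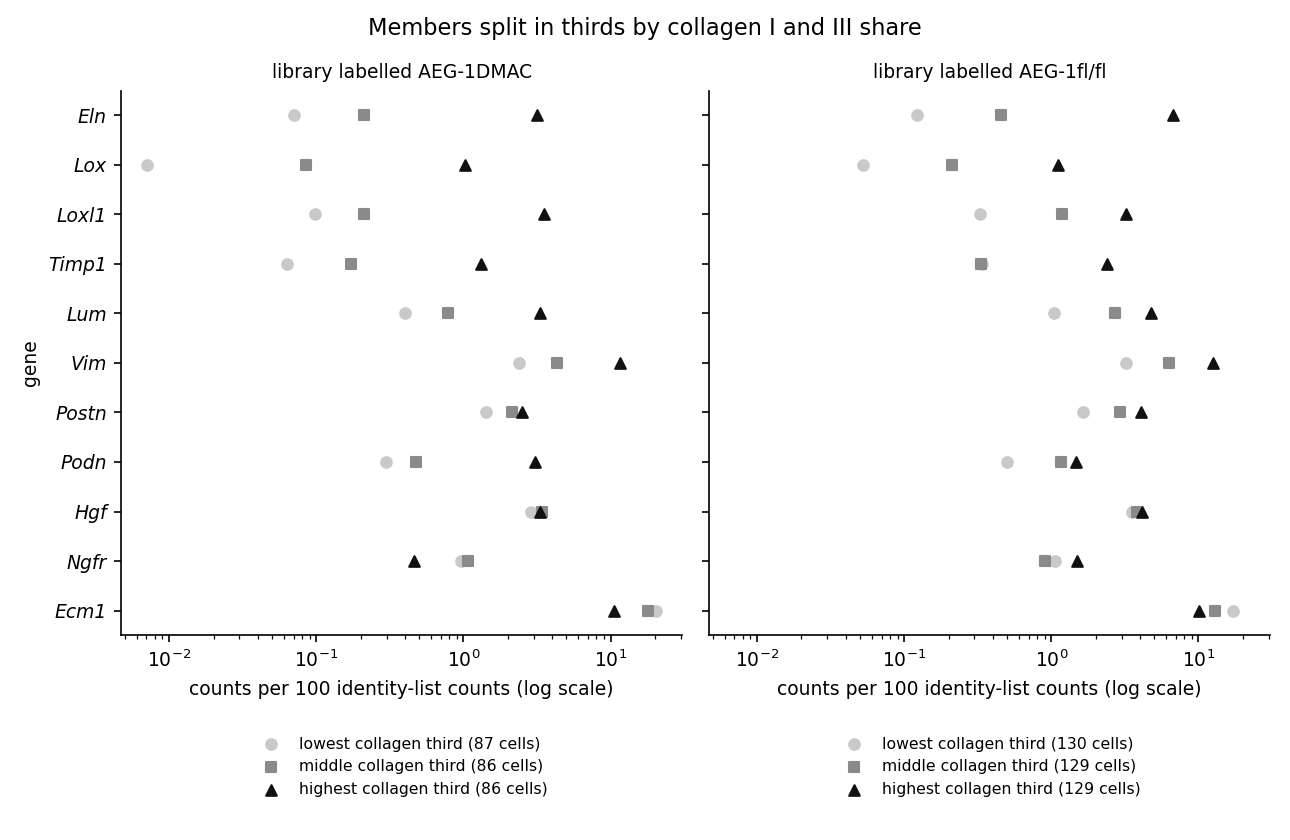
Genes per 100 stellate identity counts (log axis) in the lowest, middle and highest collagen range of members, one panel for each library. Eln, Timp1 and Vim stood highest in the highest range in both libraries, while Hgf, Ngfr and Ecm1 are identity genes and part of the denominator.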

How the data were processed

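Livers were flash-frozen, fixed, dissociated and hybridized with the 10x Genomics Fixed RNA mouse probe kit, so a gene is measured by its probes. The authors deposited filtered matrices of counts of molecules per gene and cell. Per the submitters' processing notes the tools were Cell Ranger 7.1.0 and Seurat, with genome mm10. The matrices held 19059 genes, 2581 and 3535 cells, and 79589511 and 90440089 counts. Cells under 100 detected genes or over 10% mitochondrial counts were dropped. Gates for endothelial and macrophage cells were built from counts in the same way as the stellate gate. The hepatocyte gate used no hepatocyte gene. It took cells with at least 10000 counts and at most 1 per 10000 for each of the stellate, endothelial and macrophage gate sums. The summed cholangiocyte, lymphocyte and neutrophil lists had the same limit. Hepatocytes with fewer counts therefore stayed outside that gate. Counts of the members were summed per library and divided by their total, as CPM, with exact Poisson intervals. Ratios of libraries and shares had exact binomial intervals, and a ratio was called past 2-fold. A gene was compared with at least 50 counts summed over both libraries. Cells are not replicates, and with 1 library per group no test or p-value was computed.

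The members and the gene lists were chosen with earlier results of these data known. The lists cover stellate identity, collagens, noncollagen matrix, collagen processing, proteases, activation, TGF-β, PDGF, paracrine factors, chemokines, transcription factors, retinoids, fatty acid oxidation, proliferation and immediate early genes, and markers of other liver cells. Genes to be named were the gate genes, those the study names in stellate cells, up to 6 of each list by count and up to 3 by highest and 3 by lowest log2 ratio, the 8 lowest and 8 highest stellate-enriched genes with at least 100 counts, Mtdh and markers of other cells. Cnn1 and Actg2 were chosen after their values were seen. Some genes of the lists are not reported here by name. Alternatives were other totals, other gates, other minima, equal weight per cell, removal of deep cells and subtraction of the hepatocyte profile. The divisions by hepatocyte share, by smooth muscle genes and by fibroblast genes, and the removal of single top cells, were chosen after seeing the data. The ratio code was checked on simulated data. Python 3.11.15, NumPy 2.4.6, SciPy 1.17.1, pandas 2.3.3 and matplotlib 3.10.9 were used. Promoters are RefSeq sequences, and gene positions are from GENCODE vM21.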

Additional observations from a re-analysis of the deposited data

How the results depend on the processing

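Each group was 1 library, so values could be recomputed but not tested. No paired analysis was possible because each group had 1 replicate and no result came from a test. The ratio of stellate cell shares, 0.896 (0.764 to 1.05), ran from 0.816 to 0.982 over its alternatives, and its interval excluded 1 with Dcn out of the gate. Of the values recomputed under the alternatives, 302 stayed within their counting interval or within 1.5 times, 233 moved without a change of sign and 23 changed sign; for most the cause was not tested, and for minima it is the number of genes compared. The count of genes 2-fold lower and 2-fold higher, 476 and 80 as reported, was 2485 and 685 with the hepatocyte profile subtracted, 86 and 1254 scaled to stellate-enriched genes, 1129 and 454 in members with at most 8% hepatocyte counts, 171 and 46 at a minimum of 200 counts, and 775 and 133 at 20. Those 2-fold higher were 185 with equal weight per cell, 146 with Dcn out of the gate and 166 in members of at most 20000 counts. The stellate-enriched median of −0.60 was −0.17 with the profile subtracted, 0.15 scaled and 0.20 at 8%. The collagen median of −0.90 was −0.67, −0.15 and −0.25 under these, −0.60 with equal weight, −0.62 without Dcn, −0.73 in members of at most 20000 counts and −1.37 in members with Reln or Lrat and few Dpt and Mfap4 counts. It was below the stellate-enriched median by 0.25 to 0.64 in each of these settings. The noncollagen matrix median of −0.65 was −0.29 with subtraction, 0.093 scaled, −0.41 without Dcn and −0.19 at 8%.

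With subtraction the identity median was 0.048 and the paracrine median 0.034. Scaled to stellate-enriched genes, medians were 0.36 for identity, 0.15 for collagen processing, 0.41 for activation, 0.10 for TGF-β, 0.25 for growth receptors, 0.47 for paracrine, 0.10 for chemokines, 0.37 for transcription factors, 0.50 for retinoids and 0.40 for immediate early genes. At 8% they were 0.14 for identity, 0.034 for collagen processing, 0.10 for activation, 0.0095 for growth receptors, 0.24 for paracrine, 0.14 for transcription factors, 0.012 for retinoids, −0.042 for fatty acid oxidation and 0.072 for immediate early genes, and Loxl1 was 0.12. Activation was 0.093 in members of at most 20000 counts. Genes under the minimum of 50 counts could not be compared at this depth.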

Other observations

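Genes of other programmes, read in the same stellate cells, are given as values. Fatty acid oxidation genes, which hepatocytes hold at high levels, had 0 of 30 past 2-fold in either direction and a median log2 ratio of 0.16, which turned to −0.04 in members with at most 8% hepatocyte counts. Ehhadh, of peroxisomal oxidation, had 0.60. The 57 hepatocyte genes had a median of 0.23, with Cyp2c29 at 2.73, Oat at 2.82, Cyp1a2 at 2.04 and Cyp7a1 at −1.07. Endothelial genes had a median of 0.16, with Clec4g at 1.04 and Wnt2 at 1.42.

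Proliferation genes were low in both libraries, with a summed level of 112 and 227 CPM over the 17 compared. Of them 12 were past 2-fold lower, with a median of −1.28. Mki67 had 30 and 127 counts, and 1 cell of the AEG-1fl/fl library held 44 of them. After thinning it was detected in 0.873% and 2.37% of members, against 3.46% and 2.13% of cells in the endothelial gate. The macrophage gate had 5.19% and 6.06%, and the hepatocyte gate 0.671% and 0.540%. Whether the share in members is background from other cells was not tested. Immediate early genes, which growth signals switch on quickly, had 2 of 19 past 2-fold lower, or 10.5% beside 4.37% over all genes, and 1 higher. Their median of −0.34 turned to 0.40 when libraries were scaled to stellate-enriched genes. Nr4a1 stood at 1.23, Egr2 at −2.34 and Jun at −0.26. Portal fibroblast genes had 1 of 11 past 2-fold lower, or 9.09% beside 4.37% over all genes, and a median of −0.22. Smooth muscle genes had 2 of 9 past 2-fold higher, beside 0.734% over all genes, and a median of −0.05. Among contractile genes, Myh11 stood at 0.29 and Myl9 at 0.52 without the 4 members of each library rich in smooth muscle genes. Of the lists for cholangiocytes, lymphocytes and neutrophils, 3, 2 and 4 genes were compared, with medians of −0.28, −1.85 and −0.28. Cldn4 was at 0 in the AEG-1DMAC library and Ly6g in the AEG-1fl/fl library.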
